A study of Mus musculus with 4 samples.

Results

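Laminin chains, the molecules that link them, and the integrins and dystroglycan that bind them were examined in sciatic nerve of HSF V30M and HSF WT mice. Genes were included by symbol. All laminin alpha, beta and gamma chain genes, every gene whose symbol starts with Itga or Itgb, and Nid1, Nid2, Dag1 and Agrn were taken, which gave 47 of the 50593 genes listed. They comprise 11 laminin chain genes, 3 linkers (Nid1, Nid2 and Agrn), dystroglycan, 28 entries for 27 integrin subunits, and 4 genes that share the symbol but encode no integrin subunit. The labels give 2 mice for each genotype, all 6 months old and of strain 129S1/SvImJ, and RNA was made from whole sciatic nerve. HSF WT mice are heterozygous for deletion of Hsf1 and carry no human transgene. HSF V30M mice are also heterozygous for Hsf1, and in addition they carry human TTR with the V30M mutation and lack functional endogenous Ttr. The promoter of the transgene is not given in the sources used here. The comparison asked how transcripts of the nerve's basement membrane and its receptors differed between these genotypes.

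Laminins are cross-shaped proteins of 1 alpha, 1 beta and 1 gamma chain that assemble into basement membranes. In peripheral nerve each Schwann cell is wrapped in such a sheet, and perineurial cells, blood vessels, muscle fibres and fat cells have their own. Nidogens and agrin tie laminin to other matrix proteins and to the cell. Integrins, which are pairs of an alpha and a beta subunit, and dystroglycan bind the sheet from the cell surface, and in Schwann cells this contact is needed for sorting of axons and for stable myelin. Other integrins bind collagen, fibronectin or cell surface ligands, and some are made almost only by leukocytes or platelets.

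Expression is given as FPKM, fragments counted per kilobase of transcript and scaled to depth, with 1 value per gene and genotype and none per mouse. No spread between mice is therefore given, and no value was tested for the genotype here. Ratios are given as log2((HSF V30M + 1) / (HSF WT + 1)), a scale that understates differences of low genes, and a gene was called higher or lower in HSF V30M when this ratio was beyond a fold of 1.5, or 0.58 on the log2 scale. The low values of single-transcript genes placed the libraries, taken as 2 per genotype, at about 10900000 and 12900000 fragments in HSF V30M and 7700000 and 10400000 in HSF WT. From these depths a 95% interval was set around each linear fold, and it covers counting error only, not differences between mice. Hsf1 had an FPKM of 7.94 in HSF V30M against 15.0 in HSF WT. Both groups are described as heterozygous for Hsf1, so the stated alleles do not account for this difference, which was not tested. Mouse Ttr had 6.10 in HSF V30M and a listed value of 0 in HSF WT, the reverse of what a null allele gives. Reads of the human transgene could not be told apart from mouse reads, so Ttr does not check the labels, and every direction below rests on the group labels as given. Defining genes of myelinating Schwann cells were abundant in both groups, with a summed FPKM of 12907 over 9 markers in HSF V30M against 11486 in HSF WT. In whole nerve, fewer cells of a type and less RNA per cell cannot be told apart.

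Of the 47 genes, 40 had a mean FPKM of at least 1. Among these, 6 were higher in HSF V30M (15.0%), 2 were lower (5%) and 32 lay within the fold. Of all 15620 genes that reached this mean, 8.22% were higher and 8.44% lower, or 16.7% in either direction. The median log2 ratio of the 40 genes was 0.07, with quartiles of -0.34 and 0.24, against a median of 0.00 and quartiles of -0.22 and 0.23 over all genes. The higher genes were Lama5, Lamb3, Lamc3, Itga3, Itga2b and Itgbl1, and the lower genes were Itgal and Itgax. Nearest to the fold were Itga3, just past it at 0.61, and Itga4, just within it at -0.57. With a minimum mean of 5, 4 of 28 genes were higher and 0 lower, against 7.17% and 6.33%, or 13.5% in either direction, of all genes. With no minimum the counts stayed at 6 and 2, against 6.06% higher, 6.3% lower and 12.4% in either direction. A fold over 2 left 1 gene higher (Lamb3) and 1 lower (Itgax) of the 40, against 3.98% and 3.94%, or 7.92% in either direction.

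**Figure D1:**
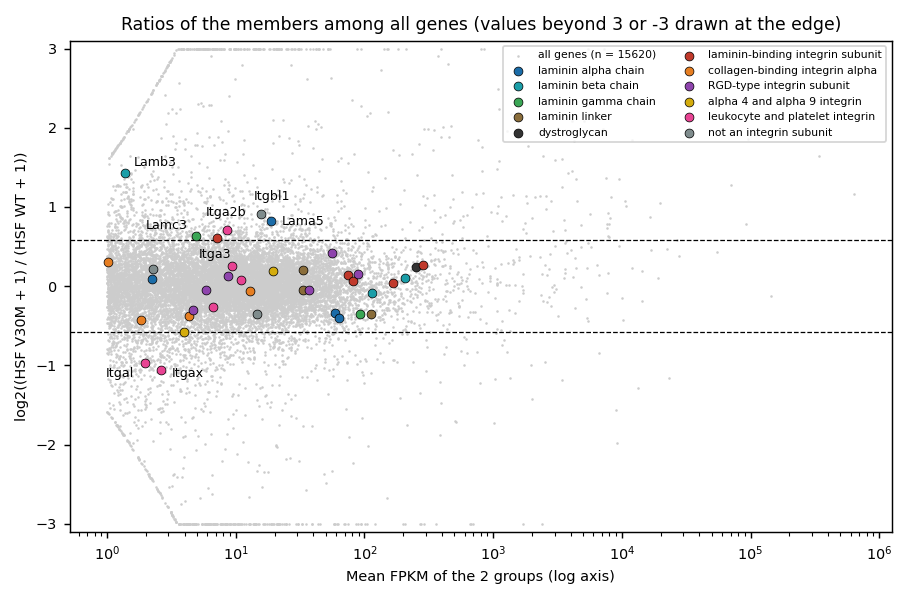
Log2 ratio, HSF V30M to HSF WT, on the y axis against the mean FPKM on a log x axis, with 1 grey point for each of 15620 genes, those beyond 3 or -3 drawn at that edge, and coloured points for the laminin, linker and integrin genes by class. The dashed lines mark the fold of 1.5, and the 8 labelled genes lie beyond them.

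The laminin alpha chains differed in direction. Lama4, the chain of vascular and Schwann cell laminins, had an FPKM of 54.4 in HSF V30M against 72.3 in HSF WT. Lama2, the main alpha chain of the Schwann cell and muscle basement membrane, had 52.0 in HSF V30M against 66.2 in HSF WT. Both were thus lower in HSF V30M, at log2 ratios of -0.40 and -0.34, within the fold. Lama5, a chain of vascular and perineurial basement membranes, had 24.4 in HSF V30M against 13.4 in HSF WT. It was 1.83-fold higher in HSF V30M, with a counting interval of 1.74 to 1.92 that rests on at least 5976 and 2311 fragments. Lama3, a chain of epithelial laminin, had 2.34 and 2.14 in HSF V30M and HSF WT, with a counting interval of the fold of 0.900 to 1.33. Lama1, a chain of embryonic basement membranes, was low in both, at 0.19 on 39 to 46 fragments in HSF V30M and 0.0758 on 11 to 15 in HSF WT.

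The make-up of the alpha chain transcripts therefore differed between the groups. Lama4 was the most abundant alpha chain in each, with 40.8% of the summed alpha chain FPKM in HSF V30M and 46.9% in HSF WT, followed by Lama2 with 39.0% and 43.0%. Lama5 made up 18.3% in HSF V30M against 8.68% in HSF WT. The level of Lama5 relative to Lama2 was 0.470 in HSF V30M against 0.202 in HSF WT. The summed FPKM of the 5 alpha chains was 133 in HSF V30M against 154 in HSF WT.

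**Figure D2:**
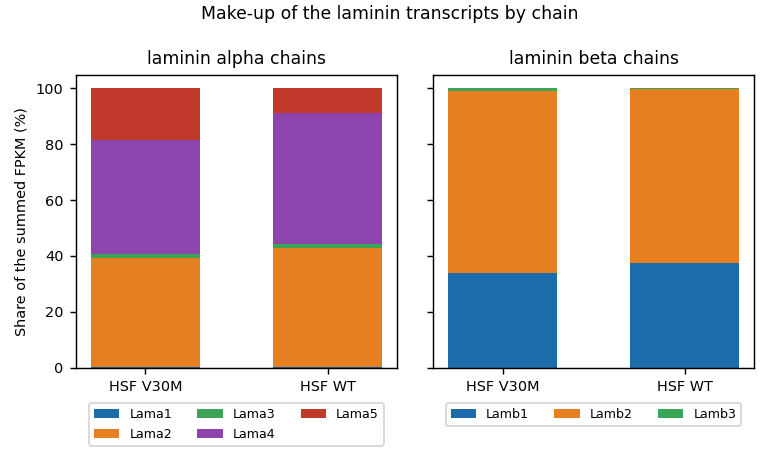
Share of each laminin chain in the summed FPKM of its class (y axis, %) in HSF V30M and HSF WT, for alpha and beta chains. The Lama5 part was 18.3% in HSF V30M against 8.68% in HSF WT, and Lamb2 was the largest beta part in both groups.

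Beta chains were dominated by Lamb2 and Lamb1, and these were close to equal in the 2 groups. Lamb2, the beta chain of synaptic, muscle and nerve laminins, had an FPKM of 213 in HSF V30M against 198 in HSF WT. Lamb1, the most widely expressed beta chain, had 111 and 118. Lamb3, the beta chain of epithelial laminin, was low in both groups but differed the most, with 2.46 in HSF V30M against 0.290 in HSF WT. This is 8.49-fold higher in HSF V30M, with a counting interval of 5.17 to 14.9, and stands on about 205 to 297 fragments against 17 to 28. Lama3, the alpha chain that partners Lamb3 in epithelial laminin, had a log2 ratio of 0.09, within the fold. Epithelial cells have their own laminin of this kind, and of the 8 epithelial and keratinocyte markers only Cdh1, which myelinating Schwann cells also make, had a mean FPKM of at least 1. Krt5 was listed at 0 in HSF WT and at 0.06 in HSF V30M, Krt14 was at 0.03 in HSF V30M against 0.122 in HSF WT, and Krt1 was listed at 0 in both. Trp63 was at 0.58 in HSF V30M against 0.225 in HSF WT, and Dsp at 0.58 against 0.299. By any amount, 4 of the 8 values were higher and 3 lower in HSF V30M, and the part of epithelium in the Lamb3 value was not tested.

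Of the gamma chains, the abundant Lamc1 was lower and the rarer Lamc3 higher in HSF V30M. Lamc1, which is part of nearly all laminins of the nerve, had an FPKM of 80.8 in HSF V30M against 103 in HSF WT, a log2 ratio of -0.35. Lamc3, a gamma chain of restricted expression, had 6.21 in HSF V30M against 3.65 in HSF WT and was 1.70-fold higher, with a counting interval of 1.49 to 1.94. Of the 10 laminin chains with a mean of at least 1, 3 were higher, none was lower and 7 were within the fold. Of all genes with this mean, 8.22% were higher and 8.44% lower. None of the 3 higher chains was the most abundant of its class. Lamc3 spans 31887291 to 31946539 on chromosome 2, plus strand.

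Lama5 (ENSMUSG00000015647) spans 180176373 to 180225859 on chromosome 2 of GRCm38, minus strand. Lamb3 (ENSMUSG00000026639) spans 193207699 to 193343878 on chromosome 1, plus strand. Their RefSeq promoter windows (GRCm38.p6, 250 bases before to 50 after the start) are shown because these chains had the largest ratios among the laminins. Windows were searched on both strands for GAGGAA, 1 form of the longer sites that Ets family factors bind around their shared core GGAA, which was not itself searched, GGGCGG, the GC box, and TATAAA, the TATA box, and matches are in capitals. Lama5 is shown at chr2:180225810-180226109 on the minus strand and Lamb3, at the first of 2 listed starts, at chr1:193301744-193302043 on the plus strand.
Lama5: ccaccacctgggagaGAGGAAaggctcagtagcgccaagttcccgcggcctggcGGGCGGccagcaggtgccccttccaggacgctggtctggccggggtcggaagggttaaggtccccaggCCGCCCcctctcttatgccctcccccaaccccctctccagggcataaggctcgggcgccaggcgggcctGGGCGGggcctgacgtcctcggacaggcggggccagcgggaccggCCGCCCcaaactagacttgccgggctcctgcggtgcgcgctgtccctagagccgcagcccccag
Lamb3: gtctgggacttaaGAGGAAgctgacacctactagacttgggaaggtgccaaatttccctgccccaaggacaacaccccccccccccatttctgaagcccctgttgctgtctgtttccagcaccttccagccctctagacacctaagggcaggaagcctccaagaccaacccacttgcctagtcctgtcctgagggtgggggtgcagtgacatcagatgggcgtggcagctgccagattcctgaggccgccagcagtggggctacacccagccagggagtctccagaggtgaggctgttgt
The Lama5 window held 4 GC boxes and 1 GAGGAA, and 72.7% of its bases were G or C. The Lamb3 window held 1 GAGGAA and no GC box at 59.3% G or C. Of all 32851 windows of this length, 35.7% held the GC box, 28.3% GAGGAA and 13.6% the TATA box. A match is a description of the letters, not of a bound site.

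Of the laminin linkers, Nid1 was lower in HSF V30M by about as much as Lamc1, to which nidogens bind. Nid1 had an FPKM of 98.2 in HSF V30M against 126 in HSF WT, a log2 ratio of -0.36. Nid2, the second nidogen, had 32.6 and 33.8, and the counting interval of its fold, 0.916 to 1.02, includes 1. Agrn, the heparan sulphate proteoglycan that joins laminin to dystroglycan, had 35.5 in HSF V30M against 30.7 in HSF WT. Lama2, Lama4, Lamc1 and Nid1, each with an FPKM above 50 in both groups, thus had ratios between -0.40 and -0.34. The lower quartile of all genes was -0.22. These 4 genes were picked for their ratios, so their place below it is not a result, and all were within the fold. The other members above 50 in both groups had ratios between -0.08 and 0.27. They were Lamb1, Lamb2, Dag1, Itgb4, Itga6, Itga7, Itgav and Itgb1.

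Skeletal muscle and fat, whose fibres and cells have basement membranes of their own, were read from marker lists. Of 13 skeletal muscle markers 9 had a mean of at least 1, all of them lower in HSF V30M, and the summed FPKM of the list was 51.3 in HSF V30M against 195 in HSF WT. Of 8 adipocyte markers 3 were lower, and their sum was 2474 in HSF V30M against 3408 in HSF WT. No marker of either list was at 0 in both groups. The part of these tissues in the laminin values was not tested. Vascular laminins hold both Lama4, which was lower, and Lama5, which was higher. The endothelial list had 2 of 9 markers higher and none lower, with a sum of 305 in HSF V30M against 229.9 in HSF WT. The smooth muscle and pericyte list had 2 of 10 higher and 2 lower, with 791 and 1386. Tagln alone, at 472 in HSF V30M against 1102 in HSF WT, sets the direction of that sum. By any amount, 7 of the 10 values were higher in HSF V30M and 3 lower. The perineurial list had 1 of 6 higher and none lower, with 795 and 622. Of the Schwann cell lists, the myelin list had none of 9 beyond the fold. The nonmyelinating list had none of 6 higher and 1 lower, with 146 and 155. The shared list had 2 of 6 higher and none lower, with 769 and 617. The fibroblast list had none of 8 higher and 1 lower, with 2331 and 2451. Of all genes with a mean of at least 1, 8.22% were higher and 8.44% lower. The part of these cells in the laminin values, Lamb3 and Lamc3 included, was likewise not tested.

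Of the integrin and dystroglycan genes, Itgb4, Dag1 and Itga6 were the most abundant in both groups. Dag1, which encodes both subunits of dystroglycan, the receptor linked to the dystrophin family inside the cell, had an FPKM of 272 in HSF V30M against 230.05 in HSF WT, a log2 ratio of 0.24. Itgb4, which pairs with the alpha 6 subunit in mature myelinating Schwann cells and in perineurium, was the highest of all 47 genes, with 309.65 in HSF V30M against 257 in HSF WT. Itga6 had 168 and 163, and Itga7, the alpha subunit of another laminin receptor of Schwann cells and muscle, had 78.1 and 70.9. Itgb1, the common beta partner, had 83.9 in HSF V30M against 80.1 in HSF WT. The ratios of Itgb4, Itga6, Itga7 and Itgb1 were between 0.04 and 0.27, all within the fold.

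Itga3, the alpha subunit of the receptor for laminins with the alpha 3 or alpha 5 chain, was the only one of the 5 laminin-binding integrin genes beyond the fold. It had an FPKM of 8.86 in HSF V30M against 5.48 in HSF WT, which is 1.62-fold higher with a counting interval of 1.43 to 1.83. Itgb1, its beta partner, was within the fold as given above. Itga3 (ENSMUSG00000001507) lies on the minus strand of chromosome 11 from 95044474 to 95076801, and its promoter window at the first of 2 listed starts, chr11:95076665-95076964 on the minus strand, is shown for comparison with that of Lama5, with matches again in capitals.
Itga3: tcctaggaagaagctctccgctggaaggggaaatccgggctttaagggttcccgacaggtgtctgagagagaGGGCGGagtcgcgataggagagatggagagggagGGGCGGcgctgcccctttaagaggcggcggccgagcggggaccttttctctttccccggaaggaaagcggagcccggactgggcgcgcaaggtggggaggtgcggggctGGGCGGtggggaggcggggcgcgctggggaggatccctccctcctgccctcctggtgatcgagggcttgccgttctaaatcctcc
This window held 3 GC boxes, no GAGGAA and no TATA box, and 66.7% of its bases were G or C.

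**Figure D3:**
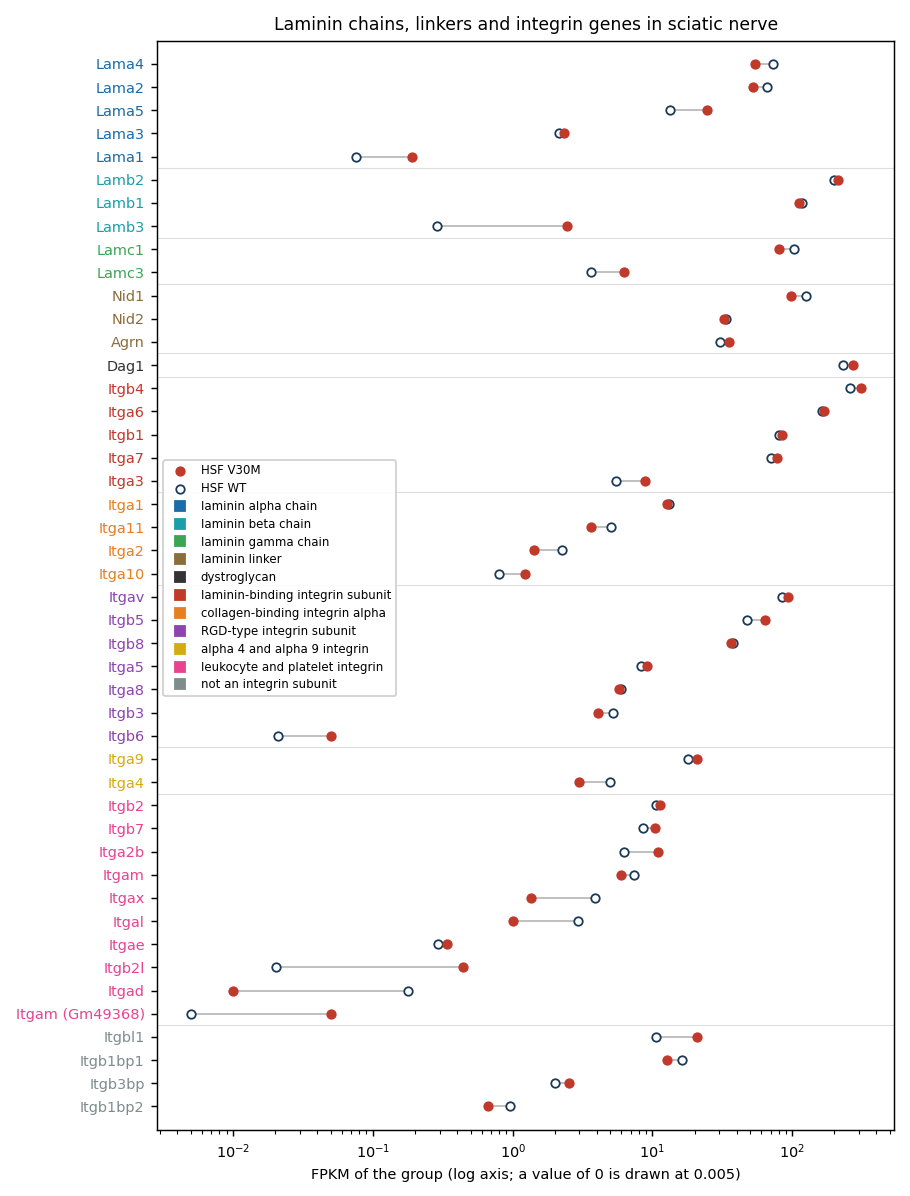
FPKM of 46 genes (log x axis) in HSF V30M (filled red) and HSF WT (open), ordered by class and by level. Itgb4, Dag1, Lamb2 and Itga6 were the highest, and the wide gaps of Lama1, Itgb6, Itgb2l, Itgad and the second Itgam entry belong to genes below an FPKM of 1.

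By level, the alpha subunits ran in the same order for the 3 highest in both groups, Itga6, Itgav and Itga7. Itga6 made up 39.4% of the summed alpha subunit FPKM in HSF V30M and 40.4% in HSF WT, Itgav 21.99% and 20.9%, and Itga7 18.4% and 17.6%. Among beta subunits, Itgb4 made up 59.6% in HSF V30M against 57.5% in HSF WT, followed by Itgb1 with 16.1% and 17.9% and Itgb5 with 12.3% and 10.7%. The fold between Itgb4 and Itgb1 was 3.69 in HSF V30M against 3.21 in HSF WT.

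None of the 4 collagen-binding alpha subunits was beyond the fold. Itga1, the most abundant of them, had an FPKM of 12.6 in HSF V30M against 13.2 in HSF WT. Itga11, a subunit of fibroblasts, had 3.66 and 5.07, and Itga2, which platelets and epithelia share, had 1.43 and 2.26. Itga10, a cartilage subunit, had 1.22 in HSF V30M against 0.802 in HSF WT. Without the pseudocount, Itga2 was 1.58-fold lower and Itga10 1.52-fold higher, so their place within the fold rests on the scale. An RNA annotated as Gm42957 overlaps 1739 exonic bases of Itga10, so the counts of this pair are uncertain.

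The subunits that bind the RGD motif of fibronectin and vitronectin, or activate TGF-beta, were also within the fold. Itgav, the common alpha partner, had an FPKM of 93.5 in HSF V30M against 84.0 in HSF WT. Itgb5 showed the largest ratio of this class, 0.41, with 63.7 in HSF V30M against 47.6 in HSF WT and a counting interval of the fold of 1.26 to 1.43. Itgb8, a partner that activates TGF-beta, had 36.4 and 37.6. Itga5, the fibronectin receptor subunit, had 9.12 and 8.26, Itga8 had 5.72 and 5.95, and Itgb3 had 4.07 and 5.25. Itgb6, an epithelial subunit, stood at about 3 to 6 fragments in HSF V30M and 1 to 2 in HSF WT, where no difference was detectable. Of the alpha 4 and alpha 9 pair, which bind VCAM1 and tenascin, Itga9 had 20.7 in HSF V30M against 17.98 in HSF WT. Itga4, which leukocytes make, had 2.99 in HSF V30M against 4.94 in HSF WT. Itga4 shares 1124 exonic bases with Cerkl on the other strand, and since the library kit is not stated to keep strand, reads of the pair cannot be separated with certainty.

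**Figure D4:**
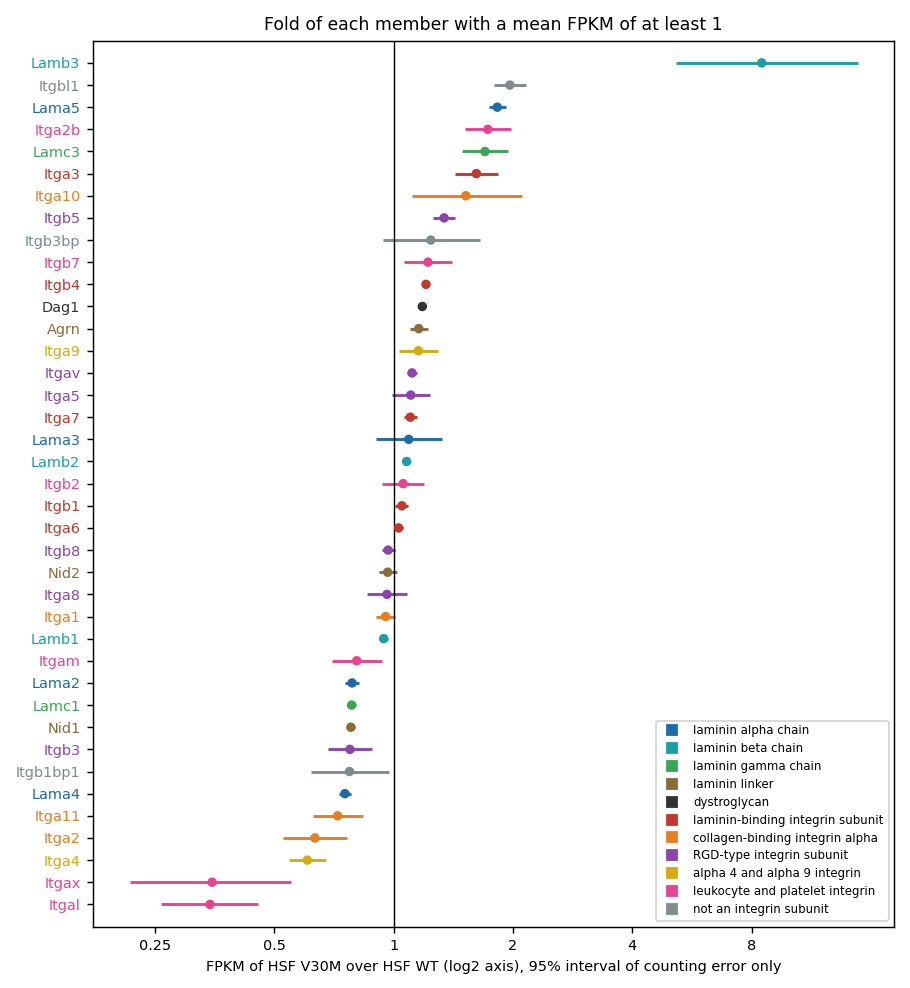
Linear fold of HSF V30M over HSF WT (log2 x axis) for 39 genes whose mean FPKM reached 1, in order of fold and coloured by class. Lines are 95% intervals of counting error only. The intervals of Lama2, Lama4, Lamc1 and Nid1 lie below 1, as do those of Lamb1, Itgb3 and other genes, and that of Lamb3 spans 5.17 to 14.9.

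The leukocyte integrins did not differ as pairs. Itgal, the alpha subunit of LFA-1 on lymphocytes and other leukocytes, had an FPKM of 1.01 in HSF V30M against 2.94 in HSF WT. It was 2.91-fold lower in HSF V30M, with a counting interval of 2.20 to 3.88, on 76 to 131 fragments against 157 to 307, and spans 127296260 to 127335138 on chromosome 7, plus strand. Itgax, the CD11c subunit of dendritic cells and some macrophages, had 1.35 in HSF V30M against 3.88 in HSF WT, which is 2.87-fold lower with an interval of 1.82 to 4.64, on 30 to 134 fragments against 61 to 310. Itgam, the CD11b subunit of myeloid cells, had 5.93 and 7.35. Itgb2, the beta subunit that all of these need to reach the cell surface, had 11.3 in HSF V30M against 10.7 in HSF WT, and the counting interval of its fold, 0.937 to 1.19, includes 1. The summed FPKM of Itgal, Itgam, Itgax and Itgad was 0.737 of that of Itgb2 in HSF V30M and 1.35 of it in HSF WT. Itgb7, the partner of alpha 4 and alpha E on gut-homing lymphocytes and mast cells, had 10.4 in HSF V30M against 8.49 in HSF WT.

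Marker genes of the same cells differed as follows, beside 8.22% higher and 8.44% lower of all genes with a mean of at least 1. Of 10 T cell markers 5 reached a mean of 1, all of them lower in HSF V30M, and the list sum was 5.39 against 20.8 in HSF WT. Of 9 B cell markers 5 reached it, again all lower, with a sum of 4.51 in HSF V30M against 33.7 in HSF WT. Of 11 macrophage markers 3 were lower, with sums of 232 and 371. Of 9 dendritic cell markers 6 reached the mean and none of these was beyond the fold, with sums of 584 and 631. Of 7 mast cell markers 5 reached it, with 3 lower and none higher, and sums of 127 and 200. Neutrophil markers went the other way, with 6 of 7 higher in HSF V30M and 1 lower, and sums of 109.99 and 32.6. The part of these cells in the Itgal, Itgax, Itgb2 and Itgb7 values was not tested. Itgb2l, a beta subunit of granulocytes, had about 23 to 30 fragments in HSF V30M and 1 in HSF WT, at an FPKM of 0.44 and 0.0202. Itgad had 1 fragment in HSF V30M and 10 to 14 in HSF WT, and Itgae had an FPKM of 0.34 and 0.292.

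Itga2b, the alpha subunit of the platelet fibrinogen receptor, was higher in HSF V30M. It had an FPKM of 10.9 in HSF V30M against 6.31 in HSF WT, which is 1.73-fold with a counting interval of 1.51 to 1.98. Its beta partner Itgb3 had a log2 ratio of -0.30, opposite in sign. Of the 9 platelet markers only Pf4, which macrophages also make, had a mean FPKM of at least 1, with 42.1 in HSF V30M against 49.9 in HSF WT. The other platelet markers were below that mean, among them Gp1ba at 1.02 in HSF V30M against 0.859 in HSF WT. Ppbp had 1.82 in HSF V30M, and Gp9, a platelet glycoprotein, had 0.71 in HSF V30M against 0.212 in HSF WT. Gp6 and Ppbp were listed at 0 in HSF WT, and 8 of the 9 platelet values were above those of HSF WT by any amount. The part of platelets in the Itga2b value was not tested.

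Promoter windows of the 2 genes of leukocytes and platelets that were beyond the fold and have a RefSeq entry are shown because they went in opposite directions. Itgax (ENSMUSG00000030789) lies on the plus strand of chromosome 7 from 128129547 to 128150657 and is shown at chr7:128129300-128129599. Itga2b (ENSMUSG00000034664) lies on the minus strand of chromosome 11 from 102453297 to 102470122 and is shown at chr11:102469834-102470133.
Itgax: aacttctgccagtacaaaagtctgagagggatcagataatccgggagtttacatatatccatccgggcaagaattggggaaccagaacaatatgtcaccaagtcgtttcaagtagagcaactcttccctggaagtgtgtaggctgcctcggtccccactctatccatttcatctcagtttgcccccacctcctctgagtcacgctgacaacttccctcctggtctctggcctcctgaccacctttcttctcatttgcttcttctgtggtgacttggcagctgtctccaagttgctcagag
Itga2b: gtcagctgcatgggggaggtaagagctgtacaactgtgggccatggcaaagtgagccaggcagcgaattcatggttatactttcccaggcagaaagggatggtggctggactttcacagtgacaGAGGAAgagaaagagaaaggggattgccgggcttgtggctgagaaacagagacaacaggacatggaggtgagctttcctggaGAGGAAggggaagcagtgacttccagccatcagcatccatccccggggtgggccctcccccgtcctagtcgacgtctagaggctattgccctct
The Itga2b window held 2 GAGGAA and no GC box, and the Itgax window held no match of the 3 motifs. G or C made up 56.0% of the Itga2b window and 50% of the Itgax window, near the median of 52.7% over all windows. Of the 30 genes examined that have a window, 16 held GAGGAA, 15 the GC box and 0 the TATA box. Over all 32851 windows the shares were 28.3%, 35.7% and 13.6%. The genes were counted if any of their windows matched and the shares are per window, so these were not compared.

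A second gene carries the symbol Itgam. It is named Gm49368 in the annotation (ENSMUSG00000108596), shares exons with Itgam, and had an FPKM of 0.05 in HSF V30M, on 5 to 6 fragments. In HSF WT it is listed at 0, and the limit that 0 allows there is 0.0422, or 3 fragments. The split of reads between these overlapping genes is uncertain.

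Of the 4 genes that share the symbol without encoding an integrin subunit, Itgbl1 was higher in HSF V30M. Itgbl1 encodes a secreted protein with repeats like those of beta subunits, and it had an FPKM of 20.8 in HSF V30M against 10.6 in HSF WT, 1.96-fold higher with a counting interval of 1.79 to 2.15. Itgb1bp1, an adaptor that binds the tail of the beta 1 subunit, had 12.7 and 16.4. Itgb3bp, a kinetochore protein also found with the beta 3 tail, had 2.51 and 2.02, and Itgb1bp2, a muscle protein, had 0.67 and 0.951. Leaving these 4 genes out gave the remaining members a median log2 ratio of 0.07, as before. The Itgbl1 window at chr14:123659890-123660189 on the plus strand is shown as that of the gene with the largest ratio after Lamb3.
Itgbl1: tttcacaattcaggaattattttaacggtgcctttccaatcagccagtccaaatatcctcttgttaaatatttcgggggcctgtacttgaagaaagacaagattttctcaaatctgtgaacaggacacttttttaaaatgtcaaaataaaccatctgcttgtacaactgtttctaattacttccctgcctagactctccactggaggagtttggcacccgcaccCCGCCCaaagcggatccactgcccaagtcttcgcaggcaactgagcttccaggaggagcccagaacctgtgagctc
It held 1 GC box, read on the minus strand, and no other match.

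Several of these genes are neighbours on a chromosome. Itga2 and Itga1 lie 21.0 kb apart on chromosome 13 with ratios of -0.42 and -0.06. On chromosome 7, Itgax lies 11.1 kb from Itgam and 3.72 kb from Itgad, and Itgal lies 728 kb before Itgam. Within this cluster, Itgal and Itgax had ratios of -0.97 and -1.05 while Itgam, between them, had -0.27. Dag1 and Lamb2 lie 216 kb apart on chromosome 9, with ratios of 0.24 and 0.11.

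Genes that act with laminins and their receptors were read from 6 lists. Over all genes with a mean of at least 1, 8.22% were higher and 8.44% lower, or 16.7% in either direction. Of 19 other basement membrane genes with a mean of at least 1, none was higher and 2 were lower. These were Frem2, with an FPKM of 1.72 in HSF V30M against 5.79 in HSF WT, and Fras1, with 3.91 and 8.67, which form a complex in the sheet beneath epithelia. The most abundant of the list were Sparc, a collagen-binding protein, at 1596 in HSF V30M against 1263 in HSF WT, and Smoc2 at 465 and 344. All 14 genes of the dystrophin-glycoprotein complex with a mean of at least 1 were within the fold. They were led by Prx at 899.9 in HSF V30M against 729.99 in HSF WT and Drp2 at 553 and 495, the myelin partners of dystroglycan. Sgca, whose mean was below 1, had 1.29 in HSF V30M against 0.170 in HSF WT, a log2 ratio of 0.97. Of the pathway that glycosylates dystroglycan, so that it can bind laminin, all 17 genes with a mean of at least 1 were within the fold. The most abundant were Dpm3 at 48.7 and 37.8 and Dpm1 at 36.9 and 42.1, which act in earlier, general steps of glycosylation.

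Of 13 other laminin receptors and partners, 2 were higher and none was lower, against 8.22% and 8.44% of all genes. Bcam, an immunoglobulin-type receptor that binds the laminin alpha 5 chain, had 134 in HSF V30M against 67.4 in HSF WT, and Sdc3, a heparan sulphate proteoglycan of Schwann cells, had 89.35 in HSF V30M against 51.8 in HSF WT. Cd9, a tetraspanin partner of integrins, led this list with 646 in HSF V30M against 602 in HSF WT, followed by Rpsa, the ribosomal protein also known as a laminin receptor, with 498 and 577. Of 24 integrin activators and focal adhesion linkers with a mean of at least 1, only Parvg was beyond the fold. Parvg, a parvin of blood cells, had 2 in HSF V30M against 4.20 in HSF WT. Tns1 at 268 and 236 and Pxn at 123 and 133 were the most abundant of that list.

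The other integrin ligands held the widest range. Of 18 with a mean of at least 1, 2 were higher and 3 lower, against 8.22% and 8.44% of all genes. Spp1, which encodes osteopontin, a ligand of RGD-binding integrins, had an FPKM of 496 in HSF V30M against 125 in HSF WT, a 3.98-fold difference. Vwf, the von Willebrand factor of endothelium and platelets, had 52.5 and 27.3. Postn, a matrix ligand of alpha v integrins, had 35.2 in HSF V30M against 78.5 in HSF WT, Thbs2 had 19.6 and 34.2, and Vcam1, the endothelial ligand of alpha 4 integrins, had 4.30 and 8.45. Fn1, which encodes fibronectin and was the most abundant ligand in HSF WT, had 212 and 263, within the fold. The medians of the 6 lists lay between -0.09 and 0.10, against 0.00 over all genes.

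**Figure D5:**
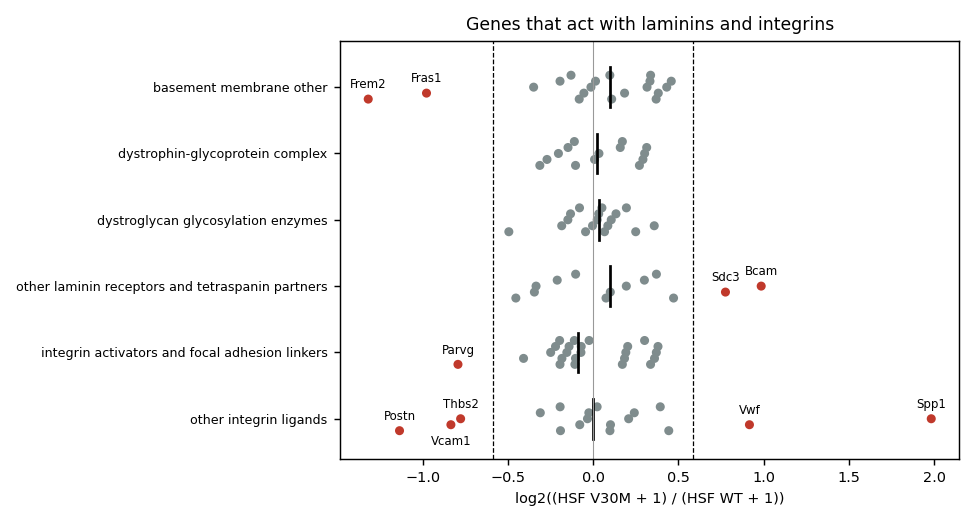
Log2 ratio, HSF V30M to HSF WT (x axis), for each gene with a mean FPKM of at least 1 in 6 lists of genes that act with laminins and integrins. Black bars are list medians, dashed lines mark the fold of 1.5, and the 10 red named points are beyond it, 4 higher and 6 lower.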

How the data were processed

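Whole sciatic nerve of 2 mice per genotype, HSF V30M and HSF WT, had been sequenced with Ion Torrent protocols and aligned to GRCm38. STAR, Cufflinks and Cuffdiff are named in the submitters' processing notes, versions not given in the sources used here. The authors deposited 1 table with 1 FPKM per gene and group, in decimal commas. Its log2 fold changes, p-values and q-values are the authors' own comparison and were not used. The 23 genes whose estimate Cuffdiff refused for excess alignments were dropped.

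Ratios used a pseudocount of 1, genes needed a mean FPKM of at least 1, and a fold over 1.5 was called. No test was made, since each group has 1 value. Depth came from the low values of genes with 1 transcript that share no locus, with 200 bases taken from the length. FPKM times effective kilobases lay within 5% of 1 fragment for 97.4% of 1129 such values in HSF WT and 88.3% of 223 in HSF V30M, whose values have 2 decimals. Fragment ranges run from the shortest coding transcript of GENCODE M21 basic (shallower library) to the longest (deeper library). Intervals are exact binomial (Clopper-Pearson) on the fewest fragments. The limit at 0 is 3 fragments. Exons of 17 of the 47 genes overlap another gene.

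The genes and lists were chosen with earlier results of these data known. Named were members with an FPKM of at least 5 in either group, beyond the fold or listed at 0, and for each pathway list the 2 most abundant genes and those beyond the fold; other members were named where counts called for it. The values of 1 laminin chain gene are in the counts and medians but are not reported here. Alternatives were a pseudocount of 0.1 or none, median-of-ratios scaling over 12700 protein-coding genes, minimum means of 5 or none, and a fold over 2. Scripts ran under Python 3.11.15 with pandas 2.3.3, numpy 2.4.6, matplotlib 3.10.9 and scipy 1.17.1.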

Additional observations from a re-analysis of the deposited data

How the results depend on the processing

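No paired analysis was possible because each genotype has a single FPKM per gene, with none for a mouse, so no mouse was left out either. The 6 higher genes were 6 with a pseudocount of 0.1, with scaling and with no minimum, 4 with a minimum mean FPKM of 5 and 7 without a pseudocount, where Itga10 is added. The 2 lower genes became 4 with a pseudocount of 0.1 or with none, by adding Itga2 and Itga4, and 0 with a minimum of 5, since Itgal and Itgax lie below it. With a fold over 2, 1 gene was higher (Lamb3) and 1 lower (Itgax), and the genes of the pathway lists beyond the fold went from 4 higher and 6 lower to 1 and 2. With no minimum, the pathway lists had 5 higher and 7 lower, by adding Sgca and Fermt1. The setting without a pseudocount was chosen after seeing the data. The median of the members lay between 0.07 and 0.09 throughout. Of 175 comparisons of single genes and class medians with an alternative, 164 moved by no more than the counting error of the gene or, for medians, by under 0.1, and 11 moved further. Those were Lamb3 and Itgal with a smaller or no pseudocount and 7 class medians with another minimum. None of the called genes changed sign. Depth limits Lama1, Itgb6, Itgb2l, Itgad and Itgae, which stand at 46 fragments or fewer per group.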
